A study of Homo sapiens with 9 samples.

Results

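The nuclear genes of oxidative phosphorylation were followed in hTERT-MSC, a line of human adipose mesenchymal stem cells immortalised with telomerase, across pseudopodia, cell bodies and whole cells. The members were the genes whose symbols in the deposited TPM data begin with NDUFA, NDUFB, NDUFC, NDUFS, NDUFV, UQCR, ATP5 or COX4 to COX8, or are SDHA to SDHD or CYC1, without NDUFAF genes and numbered pseudogenes. This gave 94 of the 62709 genes with values, and 68 numbered pseudogenes were left out. Of the 94, 85 were subunit genes: 37 of complex I, 4 of complex II, 10 of complex III, 15 of complex IV and 19 of complex V (ATP synthase). The other 9 were 8 antisense, divergent or readthrough loci and the pseudogene COX8BP. All 9 libraries came from serum-starved cells placed on uncoated inserts with pores of 3 µm and exposed for 1 h to 50 ng/mL of PDGF-BB, which attracts mesenchymal cells. Material that had passed the pores was collected from below (pseudopodia, 3 libraries), and what remained above the membrane was taken afterwards (cell body, 3 libraries). The 3 whole-cell libraries carry the same cell and treatment labels, but how they were collected is not described. No label states that the libraries of a group are separate cultures, so p-values here measure only the spread among samples of 1 cell line, and that spread may be technical.

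Oxidative phosphorylation couples the oxidation of NADH and succinate to the synthesis of ATP in the inner mitochondrial membrane. Complex I oxidises NADH, complex II oxidises succinate, complex III passes the electrons to cytochrome c and complex IV reduces oxygen, while complex V makes ATP from the proton gradient that complexes I, III and IV build. Most subunits are encoded in the nucleus, translated outside the organelle and imported, whereas a small set of core subunits of complexes I, III, IV and V is encoded and translated inside it. Mesenchymal stem cells in culture draw much of their ATP from glycolysis and raise respiration when they differentiate. Mitochondria can be carried along microtubules into the protrusions of migrating cells.

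Library totals ran from 55469030 to 83894938 counts. The 85 subunit genes held 0.379% to 0.407% of them in pseudopodia, 0.351% to 0.454% in cell bodies and 0.281% to 0.306% in whole cells. The biological coefficient of variation between replicates, over all genes, was 31.9% in pseudopodia, 17.6% in cell bodies and 5.09% in whole cells. All comparisons use 1 fit with a single spread per gene, so p-values may be too small where pseudopodia are compared. All 6 mesenchymal markers were present, with a summed CPM (counts per total library size, scaled by TMM factors) of 18600 to 23300 in pseudopodia, 29000 to 34700 in cell bodies and 29200 to 30300 in whole cells. The 4 epithelial markers summed to 255 to 366, 254 to 291 and 146 to 160 CPM in the same order, nearly all of it KRT8 and KRT18, while EPCAM had a mean of 0.0174 CPM in pseudopodia. The 4 haematopoietic markers summed to 65.1 to 80.7, 73.2 to 83.5 and 67.0 to 69.5 CPM, mostly CD34, while CD14 had means of 3.53, 11.5 and 2.37 CPM and PTPRC had means of 0.0984, 0.12 and 0.311 CPM. The 4 endothelial markers summed to 22 to 33.0, 22 to 28.7 and 18.4 to 20.3 CPM, and KDR was at 0 in cell bodies and whole cells. Within that sum VWF and PECAM1 were higher in pseudopodia than in whole cells (log2 fold changes 3.47 and 1.53) and CDH5 was lower (-2.39). The 4 adipocyte markers summed to at most 1.13 CPM in any library and FABP4 was at 0 in all 9. The part of these marker differences in the results below was not tested.

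Of the 85 subunit genes, 81 passed edgeR's expression filter and were tested. COX4I2, COX6B2, COX8C and ATP5MGL did not, with at most 4, 4, 4 and 2 counts in any library. The annotation limits some members: 40 of the 85 share no exon sequence with another gene, 35 have a numbered pseudogene with counts, and in 3 of those, NDUFV2, SDHA and COX6A1, the pseudogenes held more than 10% of the member's own count. NDUFV2, a core subunit that carries an iron-sulfur cluster, had 0 to 79 counts per library, while its processed pseudogene NDUFV2P1 held 908 in all, 432% of the count of NDUFV2. Reads of such near-identical copies can be assigned to either, so the values of NDUFV2 are uncertain in every comparison. SDHA had 438 to 648 counts per library beside pseudogene copies that together held 237% of its count (SDHAP2 alone 119%), so its values are uncertain as well. For COX6A1 the share was 18.3%. NDUFA4, since recognised as a subunit of complex IV, and its paralog NDUFA4L2 are listed under other symbols in the TPM data, so the choice by symbol left them out. They are given apart.

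The promoters of 68 of the 85 subunit genes were found in RefSeq (GRCh38.p14), as 300 bases from 250 before to 50 after an annotated start. They were searched on both strands for exact cores of motifs known from respiratory gene promoters. GCGCATGCG, the core of the NRF1 motif, was present in 11 of 68 genes (16.2%) against 2.34% of 27305 genes with a promoter in the same collection. CCGGAAGT, the core bound by ETS factors such as GABPA, was present in 12 (17.6%) against 4.95%, and AAGATGGCG, the core of the YY1 motif, in 9 (13.2%) against 2.14%. A palindromic NRF1 site is matched on both strands at overlapping positions and counts as 1 gene. A match is a description of letters, not of binding. Shown are 1 promoter for each motif, chosen among members that were higher in pseudopodia than in whole cells, and the promoter of NDUFV3, the member with the highest fold change in pseudopodia, in which none of the 3 cores was found. Capitals mark the matches: in COX5B the ETS core at 2 places, in NDUFB4 the NRF1 core on both strands of 1 palindrome, and in SDHB the YY1 core. The strand shown is that of the gene.
COX5B, chr2:97645812-97646111 (+ strand): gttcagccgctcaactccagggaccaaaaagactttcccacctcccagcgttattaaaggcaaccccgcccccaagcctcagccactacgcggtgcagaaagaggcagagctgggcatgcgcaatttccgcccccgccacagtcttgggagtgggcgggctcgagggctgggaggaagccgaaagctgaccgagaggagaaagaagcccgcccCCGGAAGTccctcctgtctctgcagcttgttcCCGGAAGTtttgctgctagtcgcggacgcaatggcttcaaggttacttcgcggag
NDUFB4, chr3:120596086-120596385 (+ strand): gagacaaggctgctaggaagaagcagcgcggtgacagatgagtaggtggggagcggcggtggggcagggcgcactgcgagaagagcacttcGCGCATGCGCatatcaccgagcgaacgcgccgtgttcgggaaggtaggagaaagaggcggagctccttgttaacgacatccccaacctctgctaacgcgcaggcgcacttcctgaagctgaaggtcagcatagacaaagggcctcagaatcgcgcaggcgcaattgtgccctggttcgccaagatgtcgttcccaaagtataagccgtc
SDHB, chr1:17053983-17054282 (- strand): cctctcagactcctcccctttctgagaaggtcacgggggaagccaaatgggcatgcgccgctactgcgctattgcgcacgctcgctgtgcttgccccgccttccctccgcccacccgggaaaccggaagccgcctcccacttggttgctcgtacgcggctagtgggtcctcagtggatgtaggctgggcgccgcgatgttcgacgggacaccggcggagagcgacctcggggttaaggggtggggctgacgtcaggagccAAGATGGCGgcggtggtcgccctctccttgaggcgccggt
NDUFV3, chr21:42893059-42893358 (+ strand): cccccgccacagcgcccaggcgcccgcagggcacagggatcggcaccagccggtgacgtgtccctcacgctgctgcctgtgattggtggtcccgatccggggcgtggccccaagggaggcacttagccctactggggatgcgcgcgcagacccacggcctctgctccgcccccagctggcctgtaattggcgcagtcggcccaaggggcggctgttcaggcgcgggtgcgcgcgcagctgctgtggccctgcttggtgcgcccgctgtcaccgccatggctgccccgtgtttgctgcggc

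The deposited TPM scale divides counts by a gene length, and on it the members spanned a wide range. That length went with the GENCODE exon union (Spearman's rho 0.943 over genes). Which transcripts were expressed was not determined, so levels of different genes compare only roughly. The highest mean TPM over the 9 libraries belonged to ATP5F1B, the catalytic beta subunit of ATP synthase (535 TPM), and to NDUFS5, an accessory subunit of complex I (348 TPM). The lowest among tested members were NDUFV2 (0.54 TPM) and NDUFA7 (0.576 TPM), which shares 33.5% of its exon length with other genes. ATP5F1B had 478 ± 67.7 TPM in pseudopodia, 631 ± 29.7 in cell bodies and 495 ± 5.29 in whole cells (SD, n = 3). ATP5F1A, its non-catalytic alpha partner in the same ring, had 134 ± 9.54, 116 ± 6.37 and 96.4 ± 1.62 TPM. Counts per library were similar, 13830 to 29826 for ATP5F1A and 14787 to 24403 for ATP5F1B. The exon unions are 10908 and 2322 bases, so the gap in TPM between the pair goes with the length used. Summed over all subunit genes, TPM was 6216, 5800 and 6300 in pseudopodia, 7775, 6420 and 6970 in cell bodies, and 4958, 5297 and 4957 in whole cells. The whole-cell libraries thus had the lowest sums, with no overlap with either fraction. Summed CPM gave the same place to whole cells (2670 ± 122, SD, n = 3) but set pseudopodia (4285 ± 287) above cell bodies (3947 ± 329), so the order of the fractions depends on the scale.

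**Figure D1:**
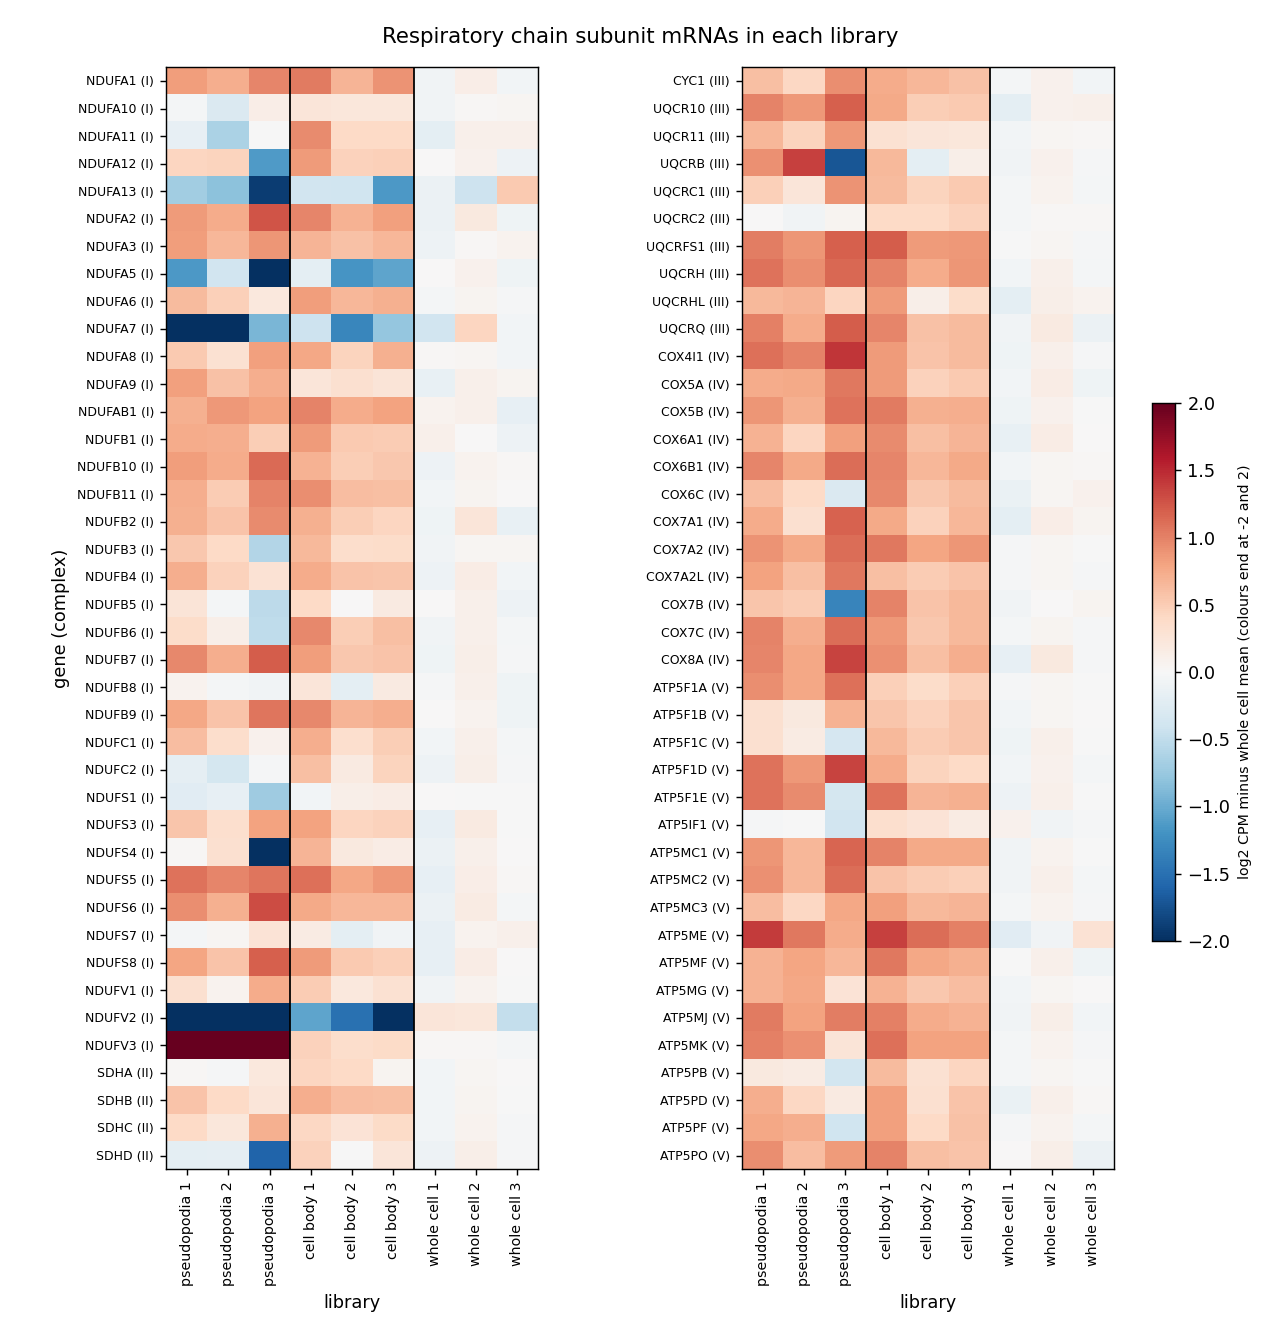
Level of 80 of the 81 tested subunit mRNAs in each library, as log2 CPM minus the mean log2 CPM of the 3 whole-cell libraries. Rows are genes with their complex in parentheses and columns are libraries; most rows are red in both fractions, NDUFV3 is deep red in pseudopodia alone, and pseudopodia replicate 3 is blue in rows such as NDUFA5, NDUFS4, UQCRB and COX7B.

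Relative to the library total, mRNAs of most subunits were higher in cell-body than in whole-cell libraries. CPM is such a relative level and does not give an amount of mRNA. Whole-cell libraries had counts for 28185 to 29895 genes and the libraries of the fractions for 23819 to 26441. The part of that difference in these results was not tested. In edgeR's quasi-likelihood test with Benjamini-Hochberg adjusted p under 0.05, 55 of 81 members were higher and 1 was lower in cell body than in whole cell, against 18.1% higher and 20.5% lower of the 19426 genes tested. The median log2 fold change was 0.61 for the members and -0.064 for all genes. Members are expressed more highly than the average gene (median of mean CPM 27.5 against 6.52), which makes calls easier to reach. Every cell-body library exceeded every whole-cell library for 71 members (background 30.0%), and the reverse held for 3 (background 34.9%). The 95% interval of the log2 fold change lay within 2-fold either way for 42 members (background 44.9%). In bulk RNA, a different number of cells of a type and a different amount of RNA per cell cannot be told apart. Cell body replicate 1 stood above the mean of replicates 2 and 3 for 78 of the 81 members (96.3%, against 47.9% of all genes), with a median ratio of 1.2. Without it 41 members were higher and 1 lower (beside 15.0% and 16.0% of all genes), with a median of 0.52. Without whole cell replicate 1 the numbers were 36 and 0 (beside 11.8% and 13.6% of all genes), with a median of 0.57. The single lower call, NDUFV2, was also lost without cell body replicate 3 and without whole cell replicate 2.

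Members of every complex were among those that rose. Members higher in cell bodies than in whole cells numbered 21 of 37 in complex I, 1 of 4 in complex II, 7 of 10 in complex III, 11 of 12 in complex IV and 15 of 18 in complex V, with medians of 0.56, 0.33, 0.56, 0.73 and 0.62 on the log2 scale. Within complex I, 2 of the 7 core subunits rose, with a median of 0.34 for the core and 0.60 for the 30 accessory subunits. UQCRFS1, the Rieske iron-sulfur protein of complex III, had 73.2, 57.2 and 57.8 CPM in cell bodies and 31.6, 32.6 and 31.1 in whole cells, which is a log2 fold change of 0.98 with a standard error of 0.138 (adjusted p = 0.000366). The cell-body values lay well apart from those of whole cells. After a log2 fold change, ± gives its standard error. COX7A2, the widely expressed isoform of a small complex IV subunit, changed by 0.91 ± 0.133 (adjusted p = 0.000471) and NDUFS5 by 0.92 ± 0.134 (adjusted p = 0.000465). NDUFA1, an accessory subunit needed for complex I assembly, had 36.7, 28.4 and 33.1 CPM against 16.9, 19.5 and 17.1 and rose by 0.88 (adjusted p = 0.000812). UQCRH, the hinge protein of complex III, rose by 0.87, and ATP5MK and ATP5MF, small membrane subunits of ATP synthase, by 0.91 and 0.85. ATP5ME had the highest log2 fold change, 1.16 ± 0.218 (adjusted p = 0.0021), but 61.6% of its exon length is shared with MYL5 on the opposite strand and its level was at most 5.56 CPM. Among the 37 tested members that share no exon sequence, 27 rose and 0 fell, with a median of 0.62 and 35 without overlap between the groups. In this comparison 35 of the 56 calls held under every alternative.

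Pseudopodia were compared with whole cells in the same fit. These comparisons share the whole-cell libraries, so the values are given side by side and not as independent support. In pseudopodia 52 of 81 members were higher than in whole cells and 3 were lower, against 27.9% higher and 33.1% lower of all genes, with medians of 0.65 and -0.117. The groups did not overlap for 53 higher members (background 31.1%) and 6 lower ones (background 38.9%), and 33 intervals lay within 2-fold (background 29.7%). Higher members numbered 19 of 37, 2 of 4, 8 of 10, 10 of 12 and 13 of 18 in complexes I to V, with median log2 fold changes of 0.45, 0.24, 0.67, 0.88 and 0.70. Among the 37 members without shared exons, 25 were called higher and 0 lower. Of the 55 calls, 29 held under every alternative. The split depends on the scale. On log2(TPM + 1), which carries no TMM factor, 27 members were higher and 13 lower, with a median of 0.16, while 18.4% of all genes were higher and 49.8% lower, with an all-gene median of -0.44. The members' median thus lay above that of all genes on both scales. Without pseudopodia replicate 2 the lower calls rose from 3 to 5, and without pseudopodia replicate 3 or whole cell replicate 3 they numbered 2.

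COX4I1, the ubiquitous isoform of the regulatory COX4 subunit, had 271, 251 and 340 CPM in pseudopodia, 227, 187 and 195 in cell bodies, and 119, 135 and 124 in whole cells. The 3 groups did not overlap. It was 2.28-fold higher in pseudopodia than in whole cells (log2 1.19 ± 0.144 SE, adjusted p = 3.75e-05). ATP5F1D, the delta subunit of the ATP synthase stalk, had 73.4, 63.1 and 88.4 CPM in pseudopodia and 33.3, 36.7 and 33.7 in whole cells, a log2 fold change of 1.12 ± 0.153 (adjusted p = 9.19e-05). UQCRH rose by 1.05 ± 0.124, with 68.5, 61.5 and 71.5 CPM against 31.0, 34.7 and 31.5. Each of these 3 genes had every pseudopodia library above every whole-cell library. UQCRFS1, NDUFS5 and COX8A, the ubiquitous isoform of the smallest complex IV subunit, each rose by 1.04, and ATP5ME by 1.08. The genes whose promoters are printed above changed by 0.90 (COX5B), 0.50 (NDUFB4), 0.41 (SDHB) and 2.68 (NDUFV3), of which SDHB ended at -0.06 on the TPM scale.

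The 3 members lower in pseudopodia than in whole cells were all barely counted. NDUFV2 had 0, 2 and 0 counts in pseudopodia, 20, 15 and 4 in cell bodies and 79, 58 and 32 in whole cells. Its fitted log2 fold change of -5.95 depends on a handful of reads, and its pseudogene held more reads than the gene. NDUFA7 (log2 fold change -2.02 ± 0.569, adjusted p = 0.00956) had at most 28 counts and shares 33.5% of its exon length with other genes, and NDUFA13 (-1.09 ± 0.376, adjusted p = 0.0263) had at most 80 and shares 21.0%. The call of NDUFA13 was lost without pseudopodia replicate 3 and without whole cell replicate 3. In the main fit no member with a mean over 1 CPM was called lower in pseudopodia than in whole cells. Every pseudopodia library still lay below every whole-cell library for 6 members, 1 of them in complex II.

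**Figure D2:**
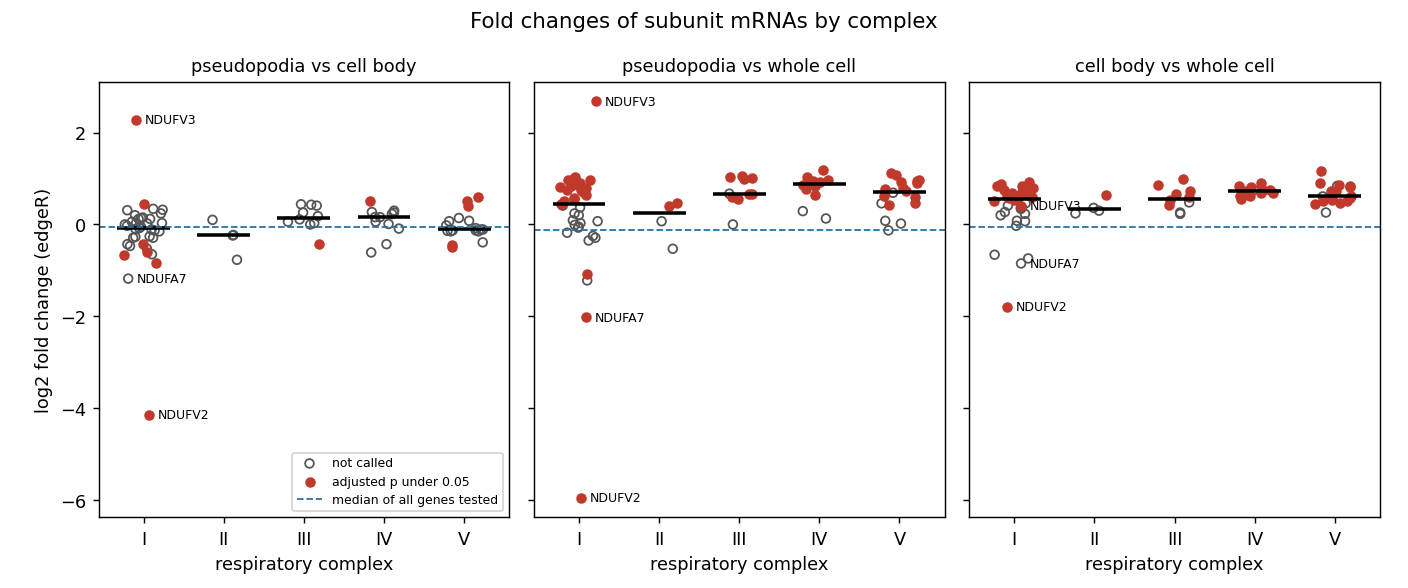
Log2 fold change of each tested subunit gene by complex, in 3 comparisons; filled points have an adjusted p under 0.05, bars are medians of a complex and the dashed line is the median of all 19426 genes tested. Medians of all complexes lie above the dashed line in both comparisons with whole cells and on either side of it between pseudopodia and cell bodies, where NDUFV3 (2.28) and the barely counted NDUFV2 (-4.15) lie apart.

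Pseudopodia and cell bodies, the 2 fractions of the same inserts, differed little in these mRNAs as a whole, and 1 gene departed from the rest. Of 81 members, 6 were higher in pseudopodia and 8 in cell bodies (7.41% and 9.88%), against 18.6% and 19.9% of all genes. The median log2 fold change was 0.00035 for the members and -0.0456 for all genes. The groups did not overlap for 10 higher members (background 22.6%) and 15 lower ones (background 24.5%). For 69 of 81 members the 95% interval lay within 2-fold either way, against 39.7% of all genes. By complex, the higher and lower calls were 2 and 5 in complex I, 0 and 0 in complex II, 0 and 1 in complex III, 1 and 0 in complex IV, and 3 and 2 in complex V. The median log2 fold changes of complexes I to V were -0.08, -0.23, 0.15, 0.16 and -0.11. Of the 14 calls, 3 held under every alternative. The counts moved with single libraries: 13 were higher without pseudopodia replicate 2, 4 without pseudopodia replicate 1, 3 without cell body replicate 2 and 2 without cell body replicate 3, while 13 were lower without pseudopodia replicate 3 and 2, 5 and 3 without cell body replicates 1, 2 and 3. They also moved with the scale: on log2(TPM + 1), 1 member was higher and 25 lower, with a median of -0.27, while the all-gene median was -0.25. Of the 6 mesenchymal markers, 5 fell in the same comparison (median -0.918), and their part in it was not tested.

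NDUFV3 had by far the highest fold change among the members. It encodes an accessory subunit of the NADH-binding module of complex I, made in a short and a long protein form by alternative splicing, which gene counts do not separate. The gene (ENSG00000160194) lies at chr21:42879644-42913304 on GRCh38 and shares no exon sequence with another gene in GENCODE release 29, and it has no numbered pseudogene in the data. It had 172, 164 and 219 CPM in pseudopodia, 39.6, 36.9 and 37.5 in cell bodies, and 29.2, 29.2 and 28.0 in whole cells, from 1737 to 12060 counts per library. Every pseudopodia library was thus more than 4 times as high as any library of the other groups. NDUFV3 was 4.86-fold higher in pseudopodia than in cell bodies (log2 2.28 ± 0.137 SE, adjusted p = 5.5e-07) and 6.42-fold higher than in whole cells (log2 2.68 ± 0.139, adjusted p = 1.22e-07). Between pseudopodia and cell bodies 2.12% of all genes tested had a higher log2 fold change, so a change of this size was not rare in the whole data. Across 18 alternative settings it stayed between 1.94 and 2.36 and was called in each. Cell bodies exceeded whole cells by 0.40 (adjusted p = 0.0323), a call that held under 9 of 18 alternatives. Without NDUFV3, summed CPM of the subunit genes was 4100 ± 263 in pseudopodia and 3909 ± 328 in cell bodies (SD, n = 3).

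**Figure D3:**
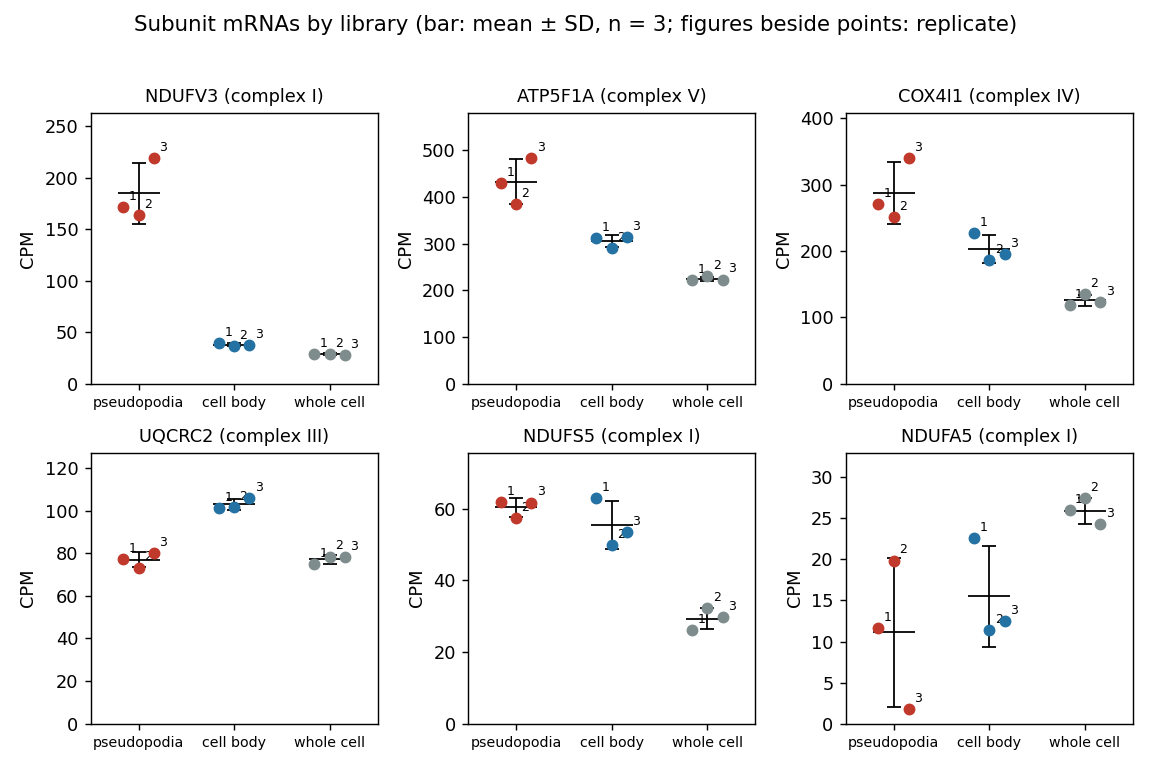
CPM of 6 subunit genes in each library, with points numbered by replicate and bars for mean ± SD (n = 3). NDUFV3 is high in pseudopodia alone, ATP5F1A and COX4I1 step down from pseudopodia to cell bodies to whole cells, UQCRC2 is highest in cell bodies, NDUFS5 is higher in both fractions than in whole cells, and NDUFA5 is scattered within both fractions.

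Of the other 5 members higher in pseudopodia than in cell bodies, 3 belong to ATP synthase. ATP5F1A had 431, 386 and 483 CPM in pseudopodia and 311, 291 and 314 in cell bodies, so that it changed by 0.50 ± 0.118 on the log2 scale (adjusted p = 0.00573). ATP5F1D had 57.5, 46.9 and 45.4 CPM in cell bodies and changed by 0.59 ± 0.151 (adjusted p = 0.0101). ATP5MC2, a gene for the membrane ring subunit, changed by 0.40 ± 0.133 (adjusted p = 0.0349). COX4I1 changed by 0.50 ± 0.142 (adjusted p = 0.0162) and NDUFA9, an accessory subunit near the ubiquinone site of complex I, by 0.44 ± 0.152 (adjusted p = 0.0379). In each of the 5 the pseudopodia libraries lay above all cell-body libraries. None of the 5 was called on the TPM scale. COX4I1 was not called without cell body replicate 2 or 3, ATP5F1D without cell body replicate 3, ATP5MC2 without cell body replicate 2 or 3 or pseudopodia replicate 1, and NDUFA9 without any 1 of the cell-body replicates or pseudopodia replicate 1.

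The 8 lower members included 2 of the large core proteins. UQCRC2, a core protein of complex III, had 77.3, 73.3 and 80.2 CPM in pseudopodia, 101, 102 and 106 in cell bodies, and 74.9, 78.4 and 78.0 in whole cells. It was lower in pseudopodia than in cell bodies (log2 fold change -0.42 ± 0.106, adjusted p = 0.00875), with no overlap, and was called in all 18 alternatives. Pseudopodia and whole cells had nearly the same level of it. NDUFS1, the largest core subunit of complex I, had 49.1, 51.0 and 35.0 CPM in pseudopodia and 55.4, 62.2 and 63.7 in cell bodies (log2 fold change -0.42 ± 0.15, adjusted p = 0.0439). Its call was lost without any 1 of the cell-body replicates and without pseudopodia replicate 1. NDUFA11, an accessory membrane subunit, had 4.04, 2.89 and 4.49 CPM against 8.69, 5.97 and 5.98 (log2 fold change -0.85 ± 0.218, adjusted p = 0.00947), a call lost without cell body replicate 1. NDUFB6, NDUFC2, ATP5F1C (the gamma shaft of ATP synthase) and ATP5PB (its peripheral stalk) changed by -0.66, -0.59, -0.49 and -0.44. Each of these 4 calls was lost without cell body replicate 1 and without cell body replicate 3, and those of ATP5F1C and ATP5PB also without cell body replicate 2. NDUFV2 (-4.15) rests on the few reads described above. On the TPM scale the other 7 were lower as well, and NDUFV2 was below the filter there.

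Complex II, which has no mitochondrially encoded subunit, had 0 of 4 genes called between the fractions and the lowest medians of the complexes against whole cells. SDHA, the flavoprotein, had 7.45, 7.16 and 8.45 CPM in pseudopodia, 9.82, 9.62 and 7.55 in cell bodies and 7.06, 7.50 and 7.36 in whole cells, and was called in no comparison. SDHB, the iron-sulfur subunit, had 50.6, 44.7 and 40.2, then 56.2, 52.0 and 51.6, then 32.9, 35.3 and 33.9 CPM. It was higher than in whole cells in pseudopodia (0.41 ± 0.124, adjusted p = 0.0138) and in cell bodies (0.65 ± 0.124, adjusted p = 0.00234). SDHC, a membrane anchor, rose in pseudopodia against whole cells by 0.46 (adjusted p = 0.0156). Both pseudopodia calls were lost on the TPM scale and without whole cell replicate 3, that of SDHB also without pseudopodia replicate 1 and that of SDHC without whole cell replicate 1. SDHD, the other anchor, had 22.2, 22.4 and 8.35 CPM in pseudopodia and 35.2, 25.2 and 30.04 in cell bodies, a log2 fold change of -0.77 ± 0.322 that did not pass (adjusted p = 0.0884). Without pseudopodia replicate 3 it was -0.44 and passed (adjusted p = 0.0239).

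Catalytic and core subunits were described whatever their values. NDUFV1, which binds NADH, had 83.9, 70.5 and 112 CPM in pseudopodia, 94.9, 77.1 and 83.0 in cell bodies and 64.0, 70.1 and 66.9 in whole cells, and passed in no comparison. NDUFS3, another core subunit, was higher than in whole cells in pseudopodia (0.57, adjusted p = 0.0109) and cell bodies (0.56, adjusted p = 0.0192). CYC1, the cytochrome of complex III that reduces cytochrome c, changed by 0.66 against whole cells in both fractions while between the fractions its value was 0.0, with a 95% interval of -0.31 to 0.32. UQCRC1, the partner of UQCRC2, changed by 0.56 and 0.54 against whole cells, and its value between the fractions was 0.03 (adjusted p = 0.915). The cell-body calls of NDUFS3 and UQCRC1 were lost on the TPM scale and without cell body replicate 1 or whole cell replicate 1 or 3. COX5A and COX5B, subunits on the matrix side of complex IV, changed by 0.86 and 0.90 in pseudopodia and by 0.62 and 0.83 in cell bodies. COX6C was higher in cell bodies than in whole cells (0.72, adjusted p = 0.0205), a call lost without cell body replicate 1, without whole cell replicate 1 or 3, with a filter of 5 CPM in 3 libraries and on the TPM scale. Against whole cells its value in pseudopodia was 0.29 (adjusted p = 0.257), and without pseudopodia replicate 3 it was 0.52 and passed (adjusted p = 0.00602). ATP5F1B rose by 0.42 in pseudopodia and by 0.52 in cell bodies against whole cells. Without whole cell replicate 1 neither call held, and the pseudopodia call was also lost without whole cell replicate 3 and on the TPM scale, where the value was -0.06. ATP5IF1, the inhibitor of ATP hydrolysis by the synthase, passed in no comparison, with 7.08, 7.19 and 5.52 CPM in pseudopodia, 9.15, 8.73 and 8.12 in cell bodies and 7.68, 6.85 and 7.12 in whole cells.

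Several subunits have isoforms that differ between tissues or with oxygen. For COX4, COX6A, COX6B, COX7B and COX8 nearly all reads came from the widely expressed isoform. COX4I2, the isoform of lung and of low oxygen, had at most 4 counts, COX6B2 and COX8C, of testis, at most 4 each, and COX6A2 and COX7B2 had 0 in all 9 libraries. A count of 0 in a library allows up to 3 counts. COX7A is the exception. COX7A1, known from heart and skeletal muscle, had 57.5 ± 14.4 TPM in pseudopodia, 63.2 ± 7.13 in cell bodies and 46.2 ± 4.23 in whole cells (SD, n = 3), beside 79.4 ± 6.67, 96.2 ± 9.52 and 57.8 ± 0.933 TPM for COX7A2 and 63.0 ± 7.19, 63.9 ± 2.7 and 48.9 ± 0.995 for COX7A2L, which takes part in joining complexes III and IV. Counts per library were 372 to 677 for COX7A1, 1462 to 3087 for COX7A2 and 3591 to 7076 for COX7A2L. Their exon unions are 1006, 1922 and 5605 bases, so their relative TPM depends on the lengths used. COX7A1 rose by 0.78 in pseudopodia (adjusted p = 0.00762) and by 0.63 in cell bodies (adjusted p = 0.0369) against whole cells. On the TPM scale neither call held. The pseudopodia call was also lost with the length and GC correction, and the cell-body call without any 1 of the whole-cell replicates or cell body replicate 1 or 3. Of the 3 genes that encode the same membrane ring subunit, ATP5MC2 had the highest mean level over all libraries (149 TPM), followed by ATP5MC3 (70.5) and ATP5MC1 (23.3). Between the fractions ATP5MC3 had a log2 fold change of -0.11 and ATP5MC1 of 0.08, and neither passed. UQCRHL, a copy of UQCRH without introns, had 6.1 TPM against 155 TPM, and reads of the pair may be shared between them.

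Among the remaining members, NDUFS6, a zinc-binding accessory subunit of complex I, had 33.2, 28.5 and 43.2 CPM in pseudopodia, 29.6, 27.6 and 27.7 in cell bodies and 16.1, 19.5 and 16.9 in whole cells. It rose by 1.00 and 0.70 against whole cells. NDUFB7 and NDUFB10, accessory subunits of the membrane arm, rose by 0.97 and 0.91 in pseudopodia and by 0.65 and 0.58 in cell bodies. UQCR10 and UQCRQ, small subunits of complex III, rose by 1.02 and 1.00 in pseudopodia and by 0.59 and 0.73 in cell bodies. COX6B1 and COX7C, small subunits of complex IV, rose by 0.96 and 0.95 in pseudopodia and by 0.81 and 0.69 in cell bodies. The cell-body call of UQCR10 was lost without cell body replicate 1 or whole cell replicate 1. None of these 7 genes passed between the fractions. In all, 17 of 81 members were called in no comparison: 10 of complex I, 2 of complex II, 1 each of complexes III and IV and 3 of complex V. NDUFB8, of the membrane arm, had 2.95, 2.75 and 2.68 CPM in pseudopodia, 3.32, 2.46 and 3.19 in cell bodies and 2.78, 3.02 and 2.66 in whole cells, and NDUFS7, a core subunit, had log2 fold changes of 0.12, 0.09 and -0.03. For 9 of the 17, among them NDUFA5, NDUFS4, UQCRB, COX7B and ATP5F1E, pseudopodia replicate 3 lay at less than 0.5 times the mean of replicates 1 and 2.

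NDUFA4 had 50.5, 45.8 and 37.8 CPM in pseudopodia, 58.8, 46.8 and 53.6 in cell bodies, and 31.6, 37.6 and 31.1 in whole cells. It was higher than in whole cells in pseudopodia (0.42, adjusted p = 0.0302) and cell bodies (0.67, adjusted p = 0.00554). NDUFA4L2, a paralog known to rise at low oxygen, had 5.43, 6.02 and 7.08 CPM in pseudopodia, 3.84, 3.93 and 3.62 in cell bodies and 3.16, 3.57 and 2.97 in whole cells. It was higher in pseudopodia than in cell bodies (0.70 ± 0.164, adjusted p = 0.00589), with no overlap between the groups. Of the antisense, divergent and readthrough loci, NDUFA6-DT, NDUFB2-AS1, NDUFV2-AS1 and UQCRFS1-DT passed the expression filter and none was called. The closest was NDUFV2-AS1 between pseudopodia and cell bodies (0.73, adjusted p = 0.0566). The strand setting of the counting is not given in the sources used here, so reads of antisense loci and their partners cannot be told apart. COX8BP, NDUFC2-KCTD14, NDUFV1-DT, UQCRB-AS1 and ATP5MF-PTCD1 were too low to be tested.

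Pseudopodia replicate 3 stood apart for a subset of members. NDUFA5, an accessory subunit of the matrix arm of complex I, had 11.7, 19.9 and 1.79 CPM in pseudopodia, UQCRB, the ubiquinone-binding protein of complex III, had 105, 145 and 17.2, and NDUFS4, an accessory subunit lost in some forms of Leigh syndrome, had 20.6, 25.2 and 3.59. Replicate 3 was at 0.114, 0.137 and 0.157 times the mean of replicates 1 and 2. COX7B (0.277), NDUFA12 (0.337), SDHD (0.375), ATP5F1E (0.386), NDUFA13 (0.44), ATP5PF (0.449), NDUFB3 (0.477) and NDUFV2 (0) were also below 0.5. These 11 members are 13.6% of those tested, against 17.3% of all genes, while the median ratio was 1.17 for members and 1.04 for all genes. GC content is that of a gene's longest annotated transcript. Across the 81 members the deviation of replicate 3 from its group mean went with GC content (Spearman rho 0.57, Pearson r 0.50), as across all genes (rho 0.66). For replicates 1 and 2 rho was -0.48 and -0.52. These are descriptions over genes that share the same libraries, and deviations of 3 libraries from their mean sum to 0, so they do not say which library departs. The median SD of log2 CPM over members was 0.235 in pseudopodia, 0.169 in cell bodies and 0.0893 in whole cells, beside 0.291, 0.202 and 0.0942 for all genes. With length and GC content corrected in each library, 10 members were higher and 11 lower between pseudopodia and cell bodies (beside 20.3% and 22.7% of all genes). Leaving out replicate 3 gave COX7B a log2 fold change of 0.54 against whole cells (adjusted p = 0.00288) in place of 0.13 (adjusted p = 0.788).

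**Figure D4:**
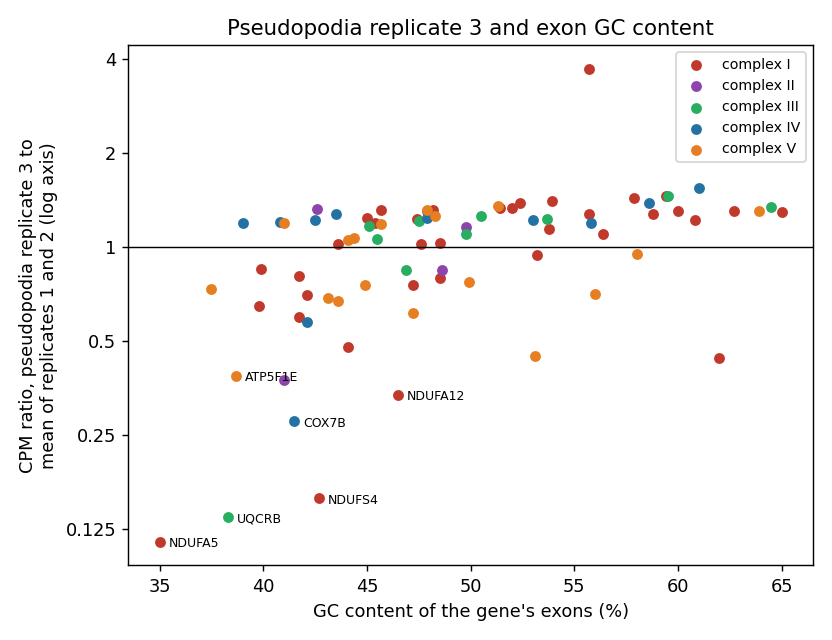
Ratio of CPM in pseudopodia replicate 3 to the mean of replicates 1 and 2 (log axis) against GC content, for tested subunit genes except NDUFV2, which is at 0. GC content, labelled as that of the exons, is that of each gene's longest annotated transcript. Points are coloured by complex; the lowest ratios, among them NDUFA5 (0.114), UQCRB (0.137) and NDUFS4 (0.157), belong to genes at the left of the axis, and 51 of 81 genes lie above 1.

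The 13 mitochondrially encoded mRNAs code for the core of complexes I, III, IV and V. They did not follow their nuclear partners in the comparisons with cell bodies. All 13 were higher in pseudopodia than in cell bodies (median log2 fold change 1.04), beside 18.6% of all genes. In cell bodies 10 were lower and 0 higher than in whole cells (median -0.596), beside 20.5% and 18.1% of all genes. In that comparison 55 of 81 nuclear members were higher. In pseudopodia 6 of 13 were higher and 0 lower than in whole cells (median 0.295), beside 27.9% and 33.1% of all genes. There the nuclear members went the same way, with 52 of 81 higher and 3 lower. MT-CO1, the catalytic subunit of complex IV, had means of 31300, 11870 and 17790 CPM in pseudopodia, cell bodies and whole cells, with a log2 fold change of 1.40 between the fractions (adjusted p = 4.35e-06). Summed TPM of the 13 was 207300, 221900 and 187000 in pseudopodia, 114900, 121400 and 105700 in cell bodies and 179600, 186100 and 198400 in whole cells. The ratio of mitochondrially encoded to nuclear TPM was 33.4, 38.3 and 29.7 in pseudopodia, 14.8, 18.9 and 15.2 in cell bodies, and 36.2, 35.1 and 40.0 in whole cells. On this ratio cell bodies lay apart from both other groups, which overlapped each other. The ratio within complexes was lowest in cell bodies each time: 22.5 ± 2.74, 11.5 ± 2.06 and 31.0 ± 2.86 for complex I in pseudopodia, cell bodies and whole cells, 93.6 ± 15.9, 45.6 ± 6.71 and 101 ± 5.14 for complex IV, and 7.83 ± 0.909, 4.49 ± 0.749 and 11.1 ± 1.15 for complex V (SD, n = 3). For complexes I and V the pseudopodia libraries also lay wholly below the whole-cell libraries (at most 25.4 against at least 28.7, and at most 8.82 against at least 10.4), while for complexes III and IV they overlapped. These ratios lie within a library and so do not depend on its scaling.

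**Figure D5:**
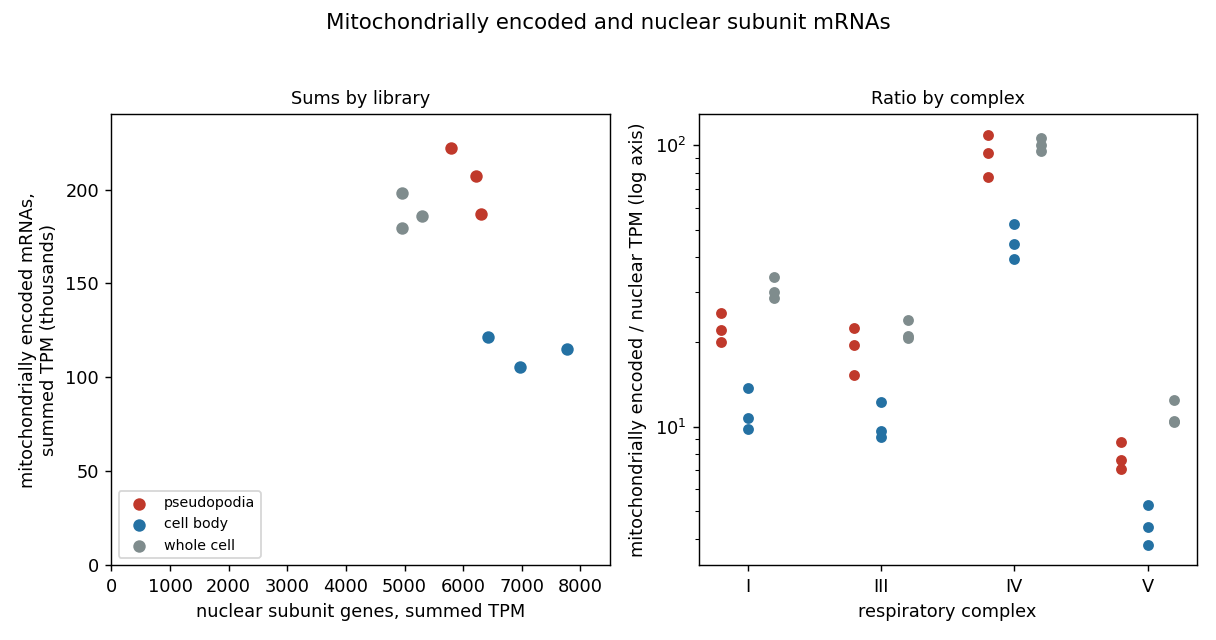
Left, summed TPM of the 13 mitochondrially encoded mRNAs against summed TPM of the nuclear subunit genes, 1 point per library; right, their ratio within complexes I, III, IV and V (log axis), 1 point per library, in the same colours. Cell-body libraries have the lowest mitochondrial sums (105700 to 121400) and the lowest ratios in every complex.

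Other genes of the pathway were counted from lists that had been set with earlier results known. CYCS, the mobile carrier cytochrome c, rose in pseudopodia (0.70, adjusted p = 0.0138) and cell bodies (1.08, adjusted p = 0.00266) against whole cells. Of 12 enzymes of the tricarboxylic acid cycle, 6 rose and 0 fell in pseudopodia and 7 rose and 0 fell in cell bodies against whole cells (50.0% and 58.3% higher, beside 27.9% and 18.1% of all genes), among them MDH2, malate dehydrogenase (0.53 and 0.50), and OGDH of the oxoglutarate dehydrogenase complex (0.48 and 0.50). Of all genes, 33.1% fell in pseudopodia and 20.5% in cell bodies against whole cells. Between the fractions 0 were higher and 2 lower in pseudopodia (0% and 16.7%, beside 18.6% and 19.9% of all genes). The 2 were DLST (-0.38) and FH (-0.69), and the lower share was near that of all genes. Of 51 assembly factors tested, 15 rose and 10 fell in pseudopodia against whole cells (29.4% and 19.6%, beside 27.9% and 33.1% of all genes). In cell bodies 11 rose and 3 fell (21.6% and 5.88%, beside 18.1% and 20.5%), and between the fractions pseudopodia had 7 higher and 9 lower (13.7% and 17.6%, beside 18.6% and 19.9%). The shares that rose against whole cells, and both shares between the fractions, were thus near those of all genes. NDUFAF8 (1.47 against whole cells) and COX14 (1.22) were among those that rose and LRPPRC, which stabilises mitochondrial mRNAs, fell by 1.05 in pseudopodia. Of 11 regulators of respiratory genes tested, 5 rose and 3 fell in pseudopodia and 4 rose and 0 fell in cell bodies against whole cells (45.5% and 36.4% higher, beside the same 27.9% and 18.1%). The shares that fell were 27.3% and 0%, beside 33.1% and 20.5% of all genes. PPRC1, a serum-inducible coactivator, had means of 224, 131 and 33.7 CPM in pseudopodia, cell bodies and whole cells (log2 fold changes 2.74 and 1.96 against whole cells, adjusted p = 1.9e-07 and 5.3e-06). NRF1 rose by 1.04 and GABPA, the DNA-binding subunit of GABP, changed by -1.96 in pseudopodia against whole cells (adjusted p = 0.000158 and 0.00492), while YY1 had a value of 0.10 and did not pass (adjusted p = 0.534).

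Exon length was set beside the fold changes of the 81 members. Spearman's rho with the length of the exon union was -0.48 (Pearson r -0.31) for cell body against whole cell and -0.29 (r -0.08) for pseudopodia against whole cell, beside -0.033 (r 0.09) between the fractions. Over all genes tested with a known length, rho was -0.1 (r -0.064), -0.055 (r 0.013) and 0.027 (r 0.078) in the same order. The members have shorter exon unions than the genes tested as a whole (median 2326 against 4102 bases), with a similar GC content (median 47.9% against 48.2%). With length and GC content corrected in each library, 59 members were called higher and 4 lower for pseudopodia against whole cells, and 65 and 1 for cell bodies against whole cells. The correlations are descriptions over genes of the same libraries.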

How the data were processed

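The authors deposited raw read counts per gene, as whole numbers, for 9 libraries, and TPM values per library. The labels name featureCounts for the count table, and the submitters' processing notes name GRCh38 and DESeq2. For the aligner, annotation release and strand setting, nothing is given in the sources used here. The ratio of counts to TPM was a library constant times a gene length, within 1% for 100% of 22429 genes compared. A blank row (1) was left out. edgeR 4.0.16 (R 4.3.3) was run on the counts with TMM factors, its expression filter by group, robust quasi-likelihood fitting and Benjamini-Hochberg adjustment over 19426 genes, with all 9 libraries in 1 fit and adjusted p under 0.05 called. CPM values use total counts and TMM factors, and standard errors come from the test statistic. The test was checked on simulated data with changed genes drawn from all genes. Over the 3 comparisons it recovered 4.48% to 7.46% of 1.5-fold, 28.4% to 35.8% of 2-fold and 80.3% to 83.3% of 4-fold changes. Between 3 and 7 unchanged genes were called. A member that was not called is therefore not shown to be unchanged. Alternatives were DESeq2 1.42.0 and its size factors, limma 3.58.1 (voom with sample weights, and log2(TPM + 1) or log2(TPM + 0.1) for genes at 1 TPM), other filters, a replicate block, a length and GC correction, and leaving out each library. Exon overlap, length and GC content (of a gene's longest transcript) came from GENCODE release 29. Named were, per comparison, the 8 members with the highest and the 8 with the lowest fold change among those called, the core subunits, isoform pairs, and the 2 highest and 2 lowest by TPM. The values of 1 member of this rule are not reported here. Members named beside these, such as those low in 1 library, were chosen after their values were seen. The members and lists were chosen with earlier results of these data known. Precision is set by 3 libraries per group. Whether equal replicate numbers pair the libraries is not stated, and the main fit did not pair them.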

Additional observations from a re-analysis of the deposited data

How the results depend on the processing

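Of the results for the tested members that the naming rule selects, 714 of 817 between pseudopodia and cell body, 734 of 819 between pseudopodia and whole cell and 721 of 819 between cell body and whole cell kept their direction and their side of the threshold under the alternatives. Percentages in parentheses are the shares of all genes called in the same direction under the same setting. Between pseudopodia and cell body the members called higher, 6 in the text (18.6%), numbered 20 with limma-voom (26.6%) and 1 on either TPM scale (13% on each). They numbered 3 with only the 6 libraries compared (14.7%) and 10 with the length and GC correction (20.3%). Those called lower, 8 in the text, numbered 25 on either TPM scale (33.5% and 33.7%) and 3 with the 6 libraries (16.5%). The median was -0.27 on log2(TPM + 1) and -0.28 on log2(TPM + 0.1). Leaving out 1 library at a time gave 2 to 13 higher (14.3% to 19.9%) and 2 to 13 lower (15.5% to 22.6%). Between pseudopodia and whole cell the members called lower, 3 in the text, numbered 5 with limma-voom (42.3%). They numbered 1 with a filter of 5 CPM in 3 libraries (34.9%) and 2 to 5 without 1 library (27.4% to 34.6%). On both TPM scales 27 were higher (18.4% and 18.2%) and 13 lower (49.8% and 49.1%), with medians of 0.16 and 0.19. Between cell body and whole cell, leaving out 1 library gave 36 to 54 higher (11.8% to 15.0%) and 0 to 1 lower (13.6% to 16.2%). Lower calls were 2 with limma-voom and with the 6 libraries, and 0 with the 5 CPM filter and on both TPM scales, where the medians were 0.42 and 0.43.

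Signs reversed for single genes. Between pseudopodia and cell body CYC1 was at -0.30 on both TPM scales and at -0.29 with the length and GC correction, with or without the block, and COX7A2 at -0.28 on log2(TPM + 0.1). Between pseudopodia and whole cell the TPM scales gave SDHA -0.30 and -0.38, and on both of them SDHB -0.06, SDHC -0.02, ATP5F1B -0.06 and ATP5PB -0.46. The cause of these changes was not tested. TPM carries no TMM factor by construction, and the members' medians lay above those of all genes there too in both comparisons with whole cells.

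The labels do not state whether libraries with equal replicate numbers come from the same inserts, and the main fit used no pairing. No pair of groups had all correlations of same-numbered deviations above 0.1 (0.0798, -0.00307 and 0.0901 for pseudopodia and cell body). Not every library correlated best with its own number. With 3 libraries per group these correlations cannot exclude a pairing. With a replicate block, members called higher and lower numbered 4 and 6 between pseudopodia and cell body (16.8% and 18.8% of all genes). They numbered 50 and 3 between pseudopodia and whole cell (26.4% and 32.8%), and 52 and 1 between cell body and whole cell (15.7% and 19.3%). Members with at most 80 counts in any library, such as NDUFV2, NDUFA7 and NDUFA13, are limited by depth.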
